A study of Mus musculus with 6 samples.

Results

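The 10 genes described here belong to the hypoxia-inducible factor (HIF) pathway, and they were taken by name from the 23896 genes to which the counted transcripts could be assigned. They comprise the alpha subunits Hif1a and Epas1, the genes of oxygen-dependent degradation Vhl, Egln1 and Egln3, and the target genes Bnip3, Pdk1, Vegfa, Ankrd37 and Ddit4, all of them outside glycolysis. Each gene is represented by its RefSeq transcript with the highest mean count.

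HIF is a transcription factor made of an oxygen-sensitive alpha subunit and a stable beta subunit. When oxygen is available, prolyl hydroxylases of the EGLN family modify the alpha subunit, which the von Hippel-Lindau protein (VHL) then recognizes and an ubiquitin ligase marks for degradation. When oxygen is low, HIF accumulates and activates genes for glucose use, mitochondrial turnover and blood vessel growth, and in the body it is best known for raising erythropoietin, the hormone that drives red blood cell production.

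MEL cells are a mouse erythroleukemia line blocked at an early erythroid stage, and DMSO, here at 2%, induces them to mature. Messenger RNA was sequenced before induction (day 0) and at days 2 and 4 of induction, from 2 libraries per day that the labels call biological replicates, which gives 6 libraries of this single line. Depth ranged from 35294930 counts on transcripts in day 4 replicate 1 to 53899476 in day 0 replicate 2. Levels are given as CPM (counts divided by the scaled library size), with the mean ± SD over the 2 libraries of a day.

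Differences between days were tested with edgeR's quasi-likelihood test over all 18351 transcripts that passed a filter on low counts, and genes were called where the p adjusted by the method of Benjamini and Hochberg was below 0.05. The standard error (SE) is given beside main results. The filter passed 12381 of the genes, and 8 of the 10 described here. The comparison of day 4 with day 0 shares its libraries with the comparisons of the single steps, so the 3 are not independent. With 2 libraries per day, every p-value rests on a spread that is pooled over the days.

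Markers of the cell type fitted the labelled line. All 10 erythroid markers were tested, and 9 were called higher at day 4 than at day 0. Klf1 was called lower, with a log2 fold change of -0.57 by day 2 and -0.54 by day 4 (edgeR adjusted p of 0.0176 and 0.0188), and neither was called without day 0 replicate 2 (-0.20 and -0.17). Their summed level was 1170 and 1218 CPM in the day 0 libraries, 4451 and 5277 CPM at day 2, and 17890 and 20080 CPM at day 4, with Hba-a1 the most abundant at days 2 and 4. Of 7 myeloid markers, 5 were tested, and their summed level of 102 and 122 CPM at day 0, 14.2 and 13.8 CPM at day 2, and 12.6 and 7.49 CPM at day 4 came mostly from Spi1. By day 2, 3 of the 5 were called lower and 1, Lyz2, higher (2.08, edgeR adjusted p = 0.000699). By day 4, 2 were called, both lower. Spi1 encodes PU.1, a factor that erythroleukemia cells of this origin are known to express, and Itgam and Elane had 7 and 8 counts over all libraries. The 5 lymphoid markers summed to 31.8 and 31.6 CPM at day 0, 19.3 and 16.3 CPM at day 2, and 9.14 and 9.22 CPM at day 4, nearly all from Ptprc, and Cd3e and Cd4 had at most 3 counts each. The 6 stromal and endothelial markers summed to 7.70 and 8.72 CPM at day 0, 4.38 and 3.77 CPM at day 2, and 2.44 and 2.67 CPM at day 4, with Pdgfrb the most abundant and Cdh5 at 0 counts. The part of these markers in the changes described here was not tested. In bulk RNA, fewer cells that express a gene and less of its RNA per cell cannot be told apart.

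The libraries of day 0 lay apart for several of these genes. Across all 12381 tested genes, day 0 replicate 2 minus replicate 1 had a median of -0.02 on the log2 CPM scale, with 5th and 95th percentiles of -0.48 and 0.68. For the 8 tested genes of the pathway the median was 0.42, and 6 of the 8 differences were above 0. Bnip3, at 1.99, was exceeded by 23 of the 12381 genes, and Ankrd37, at 0.95, by 242. The corresponding medians were 0.18 for 18 glycolytic HIF targets, 0.02 for 35 other hypoxia targets and -0.01 for 12 further pathway components. At day 2 the median of the 8 genes was 0.02, with 4 of the 8 differences above 0. At day 4 it was 0.11, with 7 of the 8 above 0, and Ankrd37 stood at 1.13 there, exceeded by 86 genes, so replicate 2 was the higher library for most of these genes at day 4 too. Changes of the 8 genes from day 0 are therefore also given without each day 0 library, in which case the remaining library is assumed to vary like those of the other days. For genes outside the 8 such values are given for some of the named genes, among them those whose call from day 0 was affected. No cause of the difference was tested.

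**Figure D1:**
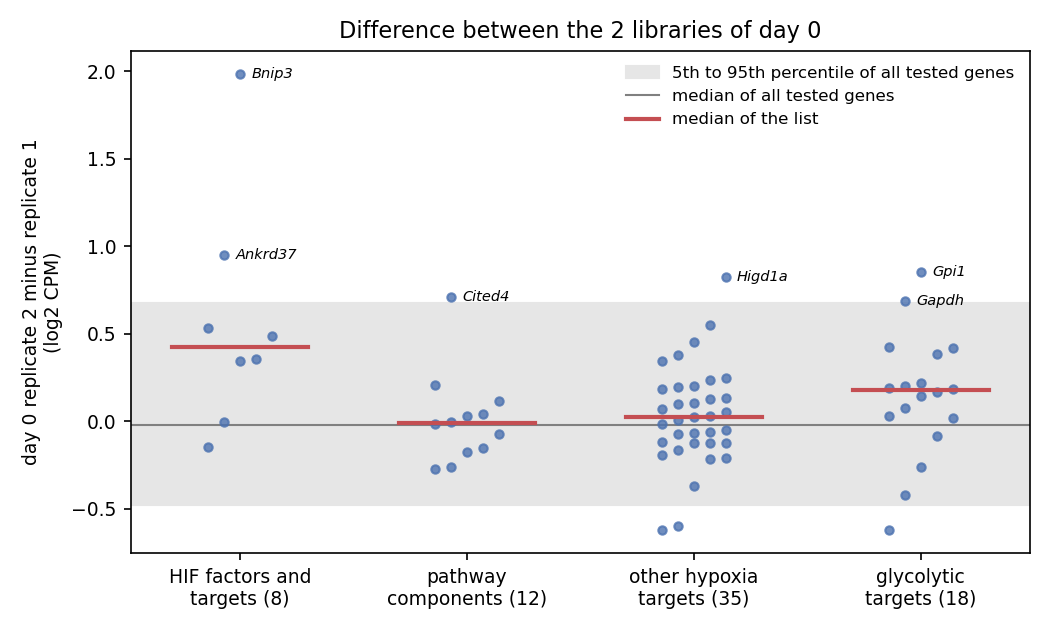
Each point is a tested gene, and the vertical axis is its log2 CPM in day 0 replicate 2 minus that in day 0 replicate 1. Red lines mark list medians and the grey band spans the 5th to 95th percentile of all 12381 tested genes, from -0.48 to 0.68. Bnip3 lies at 1.99 and Ankrd37 at 0.95, above the band.

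Hif1a (NM_010431, chr12:73901324-73947554 of GRCm38), which encodes the alpha subunit found in most cells, was present on every day. Its level was 44.5 and 56.9 CPM in the day 0 libraries, 39.8 and 37.9 CPM at day 2, and 41.8 and 42.1 CPM at day 4. The day 0 libraries were the highest and the day 2 libraries the lowest, and no pair of days overlapped. Hif1a fell by 0.39 on the log2 scale in the first step, from day 0 to day 2 (SE 0.13, edgeR adjusted p = 0.0219). That call was lost without day 0 replicate 2, at a log2 fold change of -0.20 (edgeR adjusted p = 0.102), and the value was -0.55 without day 0 replicate 1. It was also lost without either day 2 library and with scaling by total counts, at -0.19 (edgeR adjusted p = 0.217), and over all alternatives the adjusted p lay between 0.000238 and 0.217. From day 2 to day 4 the log2 fold change was 0.11 and from day 0 to day 4 it was -0.27, with edgeR adjusted p of 0.547 and 0.0748. Without day 0 replicate 1 the value for day 4 against day 0 was -0.44 and passed the threshold, and without day 0 replicate 2 it was -0.09. In the GENCODE annotation, 5.60% of the exon bases of Hif1a are shared with the antisense gene Gm15283 and 2.51% with Gm49321 on the same strand.

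Epas1 (NM_010137, chr17:86753864-86833410), the gene of the HIF-2 alpha subunit, had 0 counts in all 6 libraries. A floor of 3 counts, which a count of 0 allows, corresponds to 0.0604 CPM in the deepest library and 0.0831 CPM in the shallowest, for counting error only. A transcript below that level was not detectable at this depth. Among the other subunits, Hif3a (NM_016868) stood at 14.7 and 15.1 CPM at day 0, 14.7 and 12.7 CPM at day 2, and 17.8 and 15.0 CPM at day 4, and it was called in none of the 3 comparisons (edgeR adjusted p of 0.451, 0.171 and 0.384). The beta subunit gene Arnt (NM_001037737) was called higher at day 2 and at day 4 than at day 0, whereas Arnt2 had 0 counts.

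Vhl (NM_009507, chr6:113623994-113631634), the substrate-binding subunit of the ligase, was the single gene of the 10 that was called higher. Its level was 17.6 and 15.8 CPM at day 0, 31.7 and 34.1 CPM at day 2, and 34.6 and 38.2 CPM at day 4. Every library of days 2 and 4 lay above both day 0 libraries, and the day 4 libraries lay just above those of day 2. Vhl rose by 0.98 on the log2 scale from day 0 to day 2 (SE 0.12, edgeR adjusted p = 4.66e-05), which is 1.97-fold. By day 4 it had reached 1.13 (SE 0.12, edgeR adjusted p = 8.93e-06), and the second step, 0.15, was not called (edgeR adjusted p = 0.370). The values by day 2 and day 4 without day 0 replicate 1 were 1.06 and 1.20, and without replicate 2 they were 0.90 and 1.04. Over all 6 libraries left out in turn the value by day 4 ranged from 1.04 to 1.20, and with total counts it was 1.24.

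Egln1 (NM_053207, chr8:124908587-124949254) encodes PHD2, the main prolyl hydroxylase that acts on HIF. It was at 66.2 and 84.1 CPM at day 0, 60.5 and 63.5 CPM at day 2, and 50.8 and 57.1 CPM at day 4. The libraries of the 3 days did not overlap, in the order of the days. The decrease passed the test for day 4 against day 0, with a log2 fold change of -0.48 (SE 0.13, edgeR adjusted p = 0.00577), and for neither single step (-0.28 and -0.20, edgeR adjusted p of 0.0778 and 0.256). Without day 4 replicate 1 the value by day 4 was -0.40 and the call was lost (edgeR adjusted p = 0.0582, and between 6.31e-05 and 0.0582 over the alternatives). Without day 0 replicate 2 the value by day 4 was -0.31 and still called, and the first step was -0.10. Without day 0 replicate 1 these values were -0.64 and -0.44, and both were called. Egln3 (NM_028133, chr12:54178981-54203874), which encodes PHD3 and is itself a known HIF target, had 3 and 4 counts in the day 0 libraries and 0 counts in the 4 others. These counts are at or next to the floor of 3 counts, so no fold change is given and the gene was not tested.

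Targets of HIF are bound at hypoxia response elements, whose core is ACGTG or GCGTG. The promoter windows of the genes were read from RefSeq (GRCm38.p6), each covering 250 bases before to 50 bases after an annotated start. A window was listed for 9 of the 10 genes, and Pdk1 and Vegfa had 2 windows each, which gives 11 windows. Either core, on either strand, was found in 8 of the 11, against 43.8% of all 32851 promoter windows of this length (19.6% for ACGTG and 32.4% for GCGTG). A match describes the letters of the window and is not evidence of binding. The 3 windows with 0 matches were that of Vhl and 1 window each of Pdk1 and Vegfa, whose other windows held 2 matches of GCGTG and 1 match of each core. The start sites of these other windows lie 9 bases inside the outermost start for Pdk1 and 7214 bases inside it for Vegfa. Of the regulators, Hif1a had 3 matches of ACGTG, in a window whose start site lies 6543 bases inside the outermost annotated start of the gene, Egln1 1 of each core and Egln3 1 of ACGTG. Whether matches went with the direction of change was not tested. The windows of the 3 targets with the largest decreases and that of Vhl follow. The sequences run 5′ to 3′ on the gene's own strand, and capitals mark ACGTG and GCGTG on either strand (CACGT and CACGC when read from the other strand), where CACGTG holds ACGTG on both strands and CACGCGTG holds GCGTG on both. Bnip3 lies on the minus strand (chr7:138909457-138909756) and its window has 2 matches of ACGTG, which overlap, and 3 of GCGTG. The Ankrd37 window, also on the minus strand (chr8:45999801-46000100), has 2 of each, and its start site lies 564 bases inside the outermost annotated start of the gene. Ddit4, on the minus strand (chr10:59951721-59952020), has 1 of each. The window of Vhl, on the plus strand (chr6:113623744-113624043), has 0 matches.
Bnip3: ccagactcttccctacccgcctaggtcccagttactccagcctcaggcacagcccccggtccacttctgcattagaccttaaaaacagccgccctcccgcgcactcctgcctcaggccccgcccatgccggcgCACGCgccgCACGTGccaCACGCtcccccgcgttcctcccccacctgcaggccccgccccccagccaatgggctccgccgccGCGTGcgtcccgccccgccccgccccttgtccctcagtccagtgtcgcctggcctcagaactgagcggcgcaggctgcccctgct
Ankrd37: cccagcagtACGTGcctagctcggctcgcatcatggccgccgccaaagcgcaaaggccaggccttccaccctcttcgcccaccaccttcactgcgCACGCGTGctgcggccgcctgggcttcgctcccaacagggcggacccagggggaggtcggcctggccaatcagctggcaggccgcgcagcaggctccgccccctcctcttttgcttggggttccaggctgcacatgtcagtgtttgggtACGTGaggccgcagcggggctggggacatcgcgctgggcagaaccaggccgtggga
Ddit4: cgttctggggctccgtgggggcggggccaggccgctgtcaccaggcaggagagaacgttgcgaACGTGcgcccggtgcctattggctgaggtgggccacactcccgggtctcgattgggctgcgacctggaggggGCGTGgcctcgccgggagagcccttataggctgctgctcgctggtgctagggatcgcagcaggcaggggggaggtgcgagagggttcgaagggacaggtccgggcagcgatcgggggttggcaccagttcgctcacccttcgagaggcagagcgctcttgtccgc
Vhl: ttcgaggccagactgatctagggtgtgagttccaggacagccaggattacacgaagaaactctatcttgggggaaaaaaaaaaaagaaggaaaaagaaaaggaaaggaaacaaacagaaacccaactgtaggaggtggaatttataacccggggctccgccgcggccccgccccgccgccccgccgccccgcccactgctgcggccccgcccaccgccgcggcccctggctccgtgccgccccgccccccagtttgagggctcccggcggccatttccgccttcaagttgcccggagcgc

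Bnip3 (NM_009760, chr7:138890836-138909506) encodes a mitochondrial receptor of the BCL2 family that marks mitochondria for removal by autophagy. Its level was 39.6 and 157 CPM in the day 0 libraries, 11.2 and 10.6 CPM at day 2, and 9.67 and 9.83 CPM at day 4. Day 0 replicate 2 held 3.96 times the level of replicate 1, and even the lower day 0 library lay above every later one, while the 4 later libraries sat close together. By day 2 the log2 fold change was -3.18 (SE 0.47, edgeR adjusted p = 0.00016), or 9.03-fold lower. Its size depended on the day 0 library used, being -1.87 without replicate 2 and -3.85 without replicate 1, and it was called in both cases. By day 4 the log2 fold change was -3.33 (SE 0.47, edgeR adjusted p = 7.37e-05), which became -2.03 without day 0 replicate 2 and -4.01 without replicate 1. The second step was not called (-0.16, edgeR adjusted p = 0.819). Of the 31-base words in the Bnip3 transcripts, 26.6% occur in other annotated genes, most of them in Gm16439, and 22.3% of its exon bases lie opposite the antisense gene Gm45507, so its level is uncertain where such reads were not told apart.

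Ankrd37 (NM_001039562, chr8:45996908-46000414), a known HIF target that encodes a small ankyrin repeat protein, had the widest range of the 8 genes. It was at 17.1 and 32.9 CPM at day 0, 1.20 and 1.28 CPM at day 2, and 0.471 and 1.08 CPM at day 4. Both day 0 libraries were far above all later ones, which rested on 17 to 63 counts, and the day 4 libraries lay below those of day 2 and apart from each other. Day 2 against day 0 gave a log2 fold change of -4.33 (SE 0.35, edgeR adjusted p = 2.37e-06), or 20.1-fold lower, which became -3.78 without day 0 replicate 2 and -4.72 without replicate 1. Day 4 against day 0 gave -4.96 (SE 0.37, edgeR adjusted p = 6.44e-07), or 31.2-fold lower, and this moved to -4.42 without day 0 replicate 2, to -5.35 without day 0 replicate 1 and to -5.73 without day 4 replicate 2. The second step, at -0.63, was not called (edgeR adjusted p = 0.304), and it ranged from -1.40 without day 4 replicate 2 to -0.20 without day 4 replicate 1. It was called with no filter (edgeR adjusted p = 0.0365, and between 0.0365 and 0.792 over the alternatives). On the opposite strand, exons of Lrp2bp cover 22.7% and those of Ufsp2 3.70% of the exon bases of Ankrd37.

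Ddit4 (NM_029083, chr10:59949675-59951770) encodes REDD1, an inhibitor of mTORC1 signalling that responds to low oxygen and to other stresses. The libraries held 102 and 148 CPM at day 0, 51.5 and 53.7 CPM at day 2, and 42.5 and 47.1 CPM at day 4. The 3 days did not overlap, and most of the distance lay between day 0 and day 2. The log2 fold change was -1.25 by day 2 (SE 0.15, edgeR adjusted p = 4.71e-05) and -1.48 by day 4 (SE 0.16, edgeR adjusted p = 7.58e-06), which is 2.79-fold lower. Without day 0 replicate 2 these values were -0.96 and -1.20, without replicate 1 they were -1.49 and -1.72, and all were called. From day 2 to day 4 the value was -0.23 (edgeR adjusted p = 0.279), and it passed the threshold when either day 0 library, or both, stayed out of the fit, at edgeR adjusted p between 0.0405 and 0.0418, with a range of 0.0405 to 0.604 over all alternatives.

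Pdk1 (NM_172665, chr2:71873215-71903858) encodes a pyruvate dehydrogenase kinase, which restrains the entry of pyruvate into the mitochondrial cycle. Its level was 61.3 and 61.1 CPM at day 0, 49.0 and 48.6 CPM at day 2, and 37.7 and 40.0 CPM at day 4. The libraries of each day lay close together, those of day 0 included, and the days were ordered without overlap. It was the single gene of the 8 called at both steps, with log2 fold changes of -0.33 (SE 0.10, edgeR adjusted p = 0.0154) and -0.33 (SE 0.10, edgeR adjusted p = 0.0325). By day 4 the log2 fold change was -0.65 (SE 0.10, edgeR adjusted p = 0.000147). Its values by day 2 and day 4 without day 0 replicate 1 were -0.32 and -0.65, and without replicate 2 they were -0.34 and -0.67. The call by day 4 held without any single library, between -0.70 and -0.61, whereas each single step lost its call without either library of day 2, and the second step also without either library of day 4. With total counts the first step was -0.13 and was not called (edgeR adjusted p = 0.296, and between 0.00542 and 0.296 over the alternatives).

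Vegfa (NM_001025250, chr17:46016993-46032377), the gene of the main growth factor for blood vessels, was called in no comparison. It was at 33.5 and 46.9 CPM at day 0, 37.1 and 31.6 CPM at day 2, and 34.9 and 34.4 CPM at day 4. Day 0 replicate 2 was the highest library, and all 3 days overlapped. The log2 fold changes were -0.23 by day 2, 0.02 in the second step and -0.21 by day 4, with an SE of 0.16 in each case (edgeR adjusted p of 0.220, 0.951 and 0.238). Here the day 0 libraries decided the sign, since the values by day 2 and day 4 were 0.03 and 0.04 without replicate 2, and -0.45 and -0.44 without replicate 1, at edgeR adjusted p of 0.0031 and 0.00314 in the latter case (between 0.0031 and 0.877 by day 2 and between 0.00314 and 0.772 by day 4 over the alternatives). The second step was -0.10 without day 2 replicate 2 and -0.07 with total counts. The gene was counted as 9 transcripts with 7597 to 9607 counts in total, and NM_001287056 had the same count as NM_001025250 in every library, so these are not separate measurements. The transcripts NM_001110266, NM_001110267 and NM_001110268 gave smaller log2 fold changes, of -0.09 by day 2 and -0.08 by day 4. The others gave -0.23 by day 2 and between -0.22 and -0.21 by day 4.

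**Figure D2:**
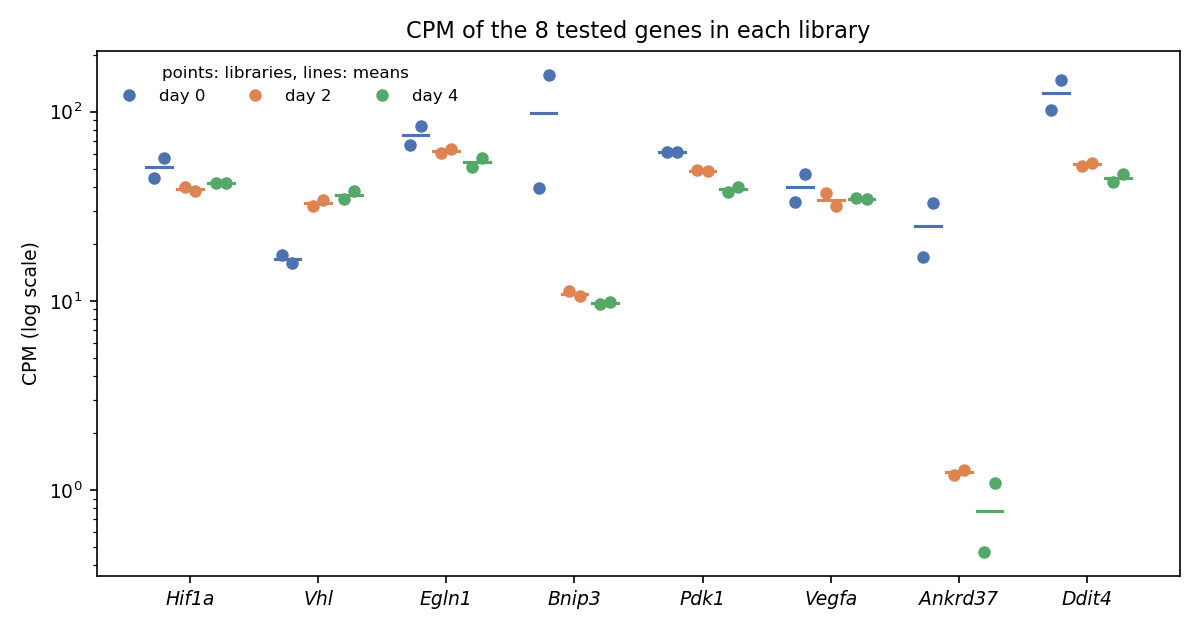
Points are the CPM of the 8 tested genes in each of the 6 libraries on a log axis, and short lines are the means of the 2 libraries of a day. Bnip3 stands at 39.6 and 157 CPM at day 0 and near 10.9 and 9.75 CPM on average later, and Ankrd37 falls from a mean of 25.0 CPM to 0.777 CPM. Epas1 and Egln3 are not drawn because they did not pass the filter on low counts.

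Among the 8 tested genes, 6 were called by day 2 relative to day 0, of which 1 was higher and 5 were lower. Among all 12381 tested genes 62.5% were called, 31.0% higher and 31.5% lower. The median log2 fold change was -0.36 for the 8 genes and 0.01 for all genes. Without day 0 replicate 1 all 8 were called, 1 higher and 7 lower, and without day 0 replicate 2 the calls numbered 5, of which 4 were lower. In the second step 1 of the 8 was called, and it was lower, where 30.3% of all genes were called, 14.0% higher and 16.2% lower, and the medians were -0.18 and 0.00. That count was 2 without either library of day 0 and 0 without any single one of the libraries of days 2 and 4. For day 4 against day 0, 6 of the 8 were called, 1 higher and 5 lower, against 71.8% of all genes, 35.5% higher and 36.4% lower, with medians of -0.57 and -0.02. The share called among the 8 was thus close to that of all genes at day 4. The 5 tested targets had a median of -1.48 by day 4, and 3 of them were lower by 1 or more on the log2 scale. A decrease of that size was called for 18.8% of all genes. The scaling bore on the balance of calls among all genes, since total counts gave, for the first step, 5001 rises and 2881 falls in place of 3841 and 3902, and, for the second step, 1228 rises and 2532 falls in place of 1739 and 2010. Under total counts the median log2 fold change of all genes was 0.21 by day 2, -0.09 for the second step and 0.10 by day 4.

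**Figure D3:**
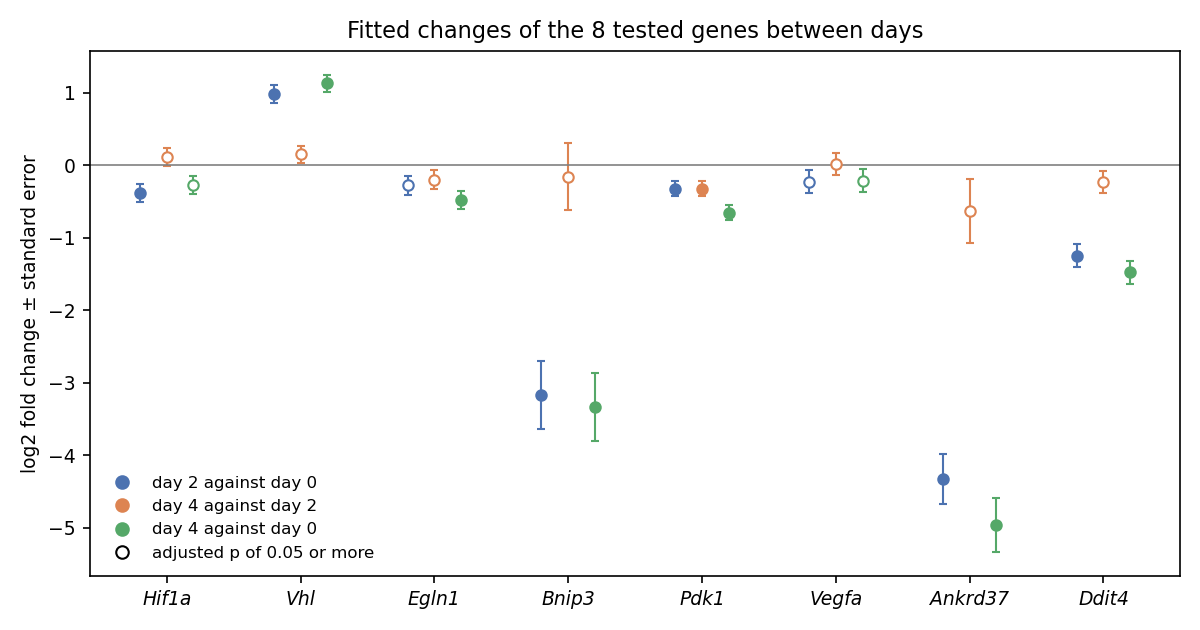
Points are fitted log2 fold changes of the 8 tested genes with their standard errors, for the first step, the second step and the whole course, and open points have an edgeR adjusted p of 0.05 or more. Vhl is the gene above 0 by day 2 and day 4, at 0.98 and 1.13, and Bnip3, Ankrd37 and Ddit4 lie below -1 in both comparisons with day 0.

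Levels of different genes were compared per kilobase of transcript. At day 0 the order was Ddit4 (71.1 ± 18.3 CPM per kilobase), Bnip3 (56.0 ± 47.3), Ankrd37 (27.0 ± 12.1), Egln1 (20.9 ± 3.51), Vegfa (20.4 ± 4.80), Pdk1 (11.8 ± 0.0176), Hif1a (10.7 ± 1.87) and Vhl (5.98 ± 0.434), each as mean ± SD with n = 2. The first 5 of these overlapped with their neighbours within their SD, as did Pdk1 and Hif1a, whereas Vhl lay below Hif1a by more than both SDs. At day 4 the order was Ddit4 (25.5 ± 1.85 CPM per kilobase), Vegfa (17.6 ± 0.173), Egln1 (15.0 ± 1.23), Vhl (13.0 ± 0.917), Hif1a (8.88 ± 0.0427), Pdk1 (7.50 ± 0.314), Bnip3 (5.55 ± 0.0658) and Ankrd37 (0.838 ± 0.467). Vhl had moved from below Hif1a to above it, and Bnip3 from the second place to the seventh. Of the neighbours at day 4, Egln1 and Vhl lay within their SDs of each other.

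The other components of the pathway were 13 genes, of which 12 were tested and 8 were called by day 2 (4 higher and 4 lower), with a median log2 fold change of -0.12. By day 4 the counts were again 4 higher and 4 lower, with a median of 0.07. Among all genes 62.5% were called by day 2 and 71.8% by day 4, with medians of 0.01 and -0.02. Total counts gave 7 for both comparisons, since Cul2 was then not called. Arnt, the partner of all alpha subunits, was at 108 and 124 CPM at day 0, 158 and 163 CPM at day 2, and 180 and 182 CPM at day 4, and its log2 fold change by day 4 was 0.64 (SE 0.11, edgeR adjusted p = 0.000306). Its libraries were ordered by day without overlap, and the value was 0.54 without day 0 replicate 1 and 0.74 without replicate 2.

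Of the remaining hydroxylases, Hif1an encodes FIH, which modifies an asparagine of the alpha subunit and blocks its contact with coactivators. It was at 65.7 and 59.1 CPM at day 0, 79.3 and 84.6 CPM at day 2, and 102 and 97.3 CPM at day 4, with a change of 0.68 on the log2 scale by day 4 (SE 0.10, edgeR adjusted p = 0.000134). By day 2 the value was 0.39 and called, except without day 2 replicate 2 (0.35, edgeR adjusted p = 0.0726), and the second step, 0.28, was called without either day 0 library (edgeR adjusted p of 0.0142 and 0.0141). Egln2, a further prolyl hydroxylase, stayed between 34.4 and 39.5 CPM in all 6 libraries, the days overlapped, and its log2 fold change by day 4 was 0.01 (edgeR adjusted p = 0.949).

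In contrast to Vhl, its partners in the ligase were mostly lower. Eloc, an elongin that links VHL to the cullin, was at 35.6 and 38.6 CPM at day 0, 21.4 and 18.0 CPM at day 2, and 18.0 and 15.8 CPM at day 4, with a log2 fold change of -1.14 by day 4 (SE 0.13, edgeR adjusted p = 1.59e-05), or -1.20 without day 0 replicate 1 and -1.09 without replicate 2. The scaffold gene Cul2 and the RING subunit gene Rbx1 had log2 fold changes of -0.38 and -0.45 by day 4 (edgeR adjusted p of 0.013 and 0.00343), and both were already lower at day 2, at -0.49 and -0.60. The calls of Cul2 were lost without day 2 replicate 2 by day 2 (-0.43, edgeR adjusted p = 0.0584) and without day 4 replicate 2 by day 4 (-0.36, edgeR adjusted p = 0.0849). Elob, the other elongin, was called for day 4 against day 2 alone, at 0.40 (edgeR adjusted p = 0.0394), and 52.3% of its 31-base words occur in other genes. Leaving out any one library of days 2 and 4 ended that call. It was also lost with total counts (0.32, edgeR adjusted p = 0.0961) and with a replicate block (0.40, edgeR adjusted p = 0.0526). Elob was also called by day 2 without day 0 replicate 2 (-0.37) and by day 4 without day 0 replicate 1 (0.31).

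The coactivators of HIF were higher at each step. Ep300, which encodes p300, was at 109 and 95.9 CPM at day 0, 139 and 133 CPM at day 2, and 184 and 188 CPM at day 4, with log2 fold changes of 0.41 and 0.46 for the steps and 0.87 by day 4 (edgeR adjusted p of 0.00653, 0.0095 and 2.79e-05). Crebbp, its close relative, gave 0.38, 0.44 and 0.82 (edgeR adjusted p of 0.0109, 0.012 and 4.79e-05). Cited2, which competes with HIF for p300 and is itself a hypoxia target, was at 54.4 and 55.4 CPM at day 0, 17.8 and 20.6 CPM at day 2, and 29.9 and 22.5 CPM at day 4. It was thus lowest at day 2, with a log2 fold change of -1.52 by day 2, 0.45 from day 2 to day 4 and -1.07 by day 4 (edgeR adjusted p of 7.97e-06, 0.0392 and 5.08e-05). Its second step was not called with total counts (0.37, edgeR adjusted p = 0.0908) or with a replicate block (0.44, edgeR adjusted p = 0.0553). The calls of the second step were lost without either day 2 library for all of Ep300, Crebbp and Cited2, and also without day 4 replicate 2 for Ep300 and Crebbp and without day 4 replicate 1 for Crebbp and Cited2. Without day 2 replicate 1 they were 0.49, 0.42 and 0.35 (edgeR adjusted p of 0.0878, 0.125 and 0.292), and the value of Cited2 was 0.23 without day 4 replicate 1. The first step was not called for Ep300 without day 2 replicate 1 (0.38, edgeR adjusted p = 0.0641) and for Crebbp without either day 2 library (0.40 and 0.36, edgeR adjusted p of 0.057 and 0.0787). Cited4 was called in no comparison, at 16.0 and 26.2 CPM at day 0 and 17.9 to 20.9 CPM later, and the sign of its values by day 2 and day 4 (-0.12 and -0.20) was turned by leaving out day 0 replicate 2 (0.28 and 0.19). Both were called without day 0 replicate 1 (-0.42 and -0.51). For day 4 against day 2, 4 of the 12 components were called, all higher, namely Elob, Crebbp, Ep300 and Cited2, with a median of 0.22, where 30.3% of all genes were called, 14.0% higher and 16.2% lower.

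Hypoxia targets outside the 10 genes and outside glycolysis were described as a list of 43 genes, of which 35 were tested. The other 8 had at most 7 counts over all libraries, among them Epo, the erythropoietin gene, with 0. By day 2, 27 of the 35 were called (7 higher and 20 lower), with a median log2 fold change of -0.55, and for day 4 against day 0, 29 were called, 7 higher and 22 lower, with a median of -0.70. These compare with 62.5% and 71.8% of all genes called and medians of 0.01 and -0.02. Without day 0 replicate 1 the calls by day 4 were 8 higher and 21 lower, and without replicate 2 they were 8 higher and 20 lower. In the second step 15 were called, 6 higher and 9 lower, with a median of -0.05, against 30.3% of all genes, 14.0% higher and 16.2% lower. Total counts gave 3 higher and 11 lower, and the count fell to 2 without day 2 replicate 1 and rose to 22 without either day 0 library.

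The list held genes that moved in opposite directions. Where the mean abundance in log2 CPM reached 1, the largest decrease by day 4 was that of Hmox1, the inducible heme oxygenase, at 43.1 and 33.4 CPM at day 0, 5.15 and 5.86 CPM at day 2, and 5.02 and 5.64 CPM at day 4. Its later libraries were all far below those of day 0, and the log2 fold change by day 4 was -2.84 (edgeR adjusted p = 1.17e-07). The chemokine receptor gene Cxcr4 (-2.47), the secreted stanniocalcin gene Stc2 (-2.43) and the mitochondrial adenylate kinase gene Ak4 (-2.26) followed. These 4 values, without day 0 replicate 1, were -2.64, -2.13, -2.50 and -2.37, and without replicate 2 they were -3.02, -2.77, -2.37 and -2.14. In Stc2 both steps were of similar size, from a mean of 44.8 CPM at day 0 to 20.3 CPM at day 2 and 8.35 CPM at day 4. Among the rises by day 4 were those of Ccng2, a cyclin G gene, with a log2 fold change of 1.20 (edgeR adjusted p = 7.61e-06), Plod1, a lysyl hydroxylase gene (1.13), and the zinc finger gene Zfp395 (1.00). Ccng2 went from 23.7 and 22.9 CPM at day 0 to 44.1 and 46.1 CPM at day 2, and 59.6 and 47.8 CPM at day 4, with no overlap between days. The values of Ccng2, Plod1 and Zfp395 by day 4 were 1.23, 1.13 and 1.04 without day 0 replicate 1 and 1.17, 1.11 and 0.95 without replicate 2. Bnip3l, the paralog of Bnip3 and a mitophagy receptor of maturing red cells, was named after its values were seen. It was called in none of the 3 comparisons, at -0.09 by day 2 and 0.20 by day 4 (edgeR adjusted p of 0.483 and 0.114), although total counts and the fit without day 0 replicate 2 gave 0.32 and 0.30 by day 4 and called it (edgeR adjusted p of 0.0205 and 0.0182). Its second step, at 0.29 (edgeR adjusted p = 0.0614), was called with DESeq2, with the 2 days alone and without either day 0 library.

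By the role of the targets, the 3 tested genes for histone demethylases had a median of 0.81 by day 4, with Kdm4b and Kdm4c called higher and Kdm3a not called. The 4 genes for secreted and membrane proteins had a median of -2.22, the 6 for mitochondria and mitophagy -0.93, the 4 for collagen and protein folding -0.84, the 4 for glycogen and nucleotides -0.74, and the 10 for transcription and signalling -0.46. Of the genes for pH regulation, Car12 (-3.93) and Car9 (-1.25) were called lower by day 4. Both rested on few counts in the day 4 libraries, with 11 and 4 for Car12 and 10 and 24 for Car9. Their mean abundance in log2 CPM was 0.27 and -0.31, below the limit of 1 used for naming genes. The call of Car9 was lost without day 0 replicate 2 (-0.93) and without day 4 replicate 1 (-0.89), and Kdm3a was called by day 4 without day 0 replicate 1 (0.28). Kdm4b, Kdm4c, Kdm3a, Car12 and Car9 were named after their values were seen.

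The 18 glycolytic HIF targets were all tested, and 16 were called by day 2 and 16 by day 4, all of them lower, with median log2 fold changes of -2.32 and -2.35. Among all genes 62.5% and 71.8% were called, 31.5% and 36.4% lower, with medians of 0.01 and -0.02. A decrease by a log2 fold change of at least 1 by day 4 was called for 15 of the 18, and for 18.8% of all genes. Pfkfb3 and Aldoc, named after their values were seen, were called in neither comparison, although Pfkfb3 was called higher in both without day 0 replicate 1 (0.48 and 0.39). The largest decreases by day 4 were those of the hexokinase gene Hk2 (-3.91), the lactate dehydrogenase gene Ldha (-3.76), the phosphoglycerate mutase gene Pgam1 (-3.65) and the glucose transporter gene Slc2a1 (-3.49), at edgeR adjusted p of 1.24e-08, 1.89e-08, 6.88e-09 and 1.66e-08. Leaving out day 0 replicate 1 gave -4.11, -3.96, -3.61 and -3.50, and without replicate 2 they were -3.70, -3.55, -3.70 and -3.49. Slc2a1 stood at 103 and 104 CPM at day 0, 9.27 and 11.5 CPM at day 2, and 8.37 and 10.1 CPM at day 4, so its day 0 libraries were alike, unlike those of Bnip3. Many glycolytic genes have processed pseudogenes that can share reads, and their levels are uncertain to that extent. For day 4 against day 2, 5 were called, all lower (Hk2, Pfkp, Pgk1, Eno1 and Ldha, of which Pfkp, Pgk1 and Eno1 were named after their values were seen), with a median of -0.17, against 30.3% of all genes called in this step, 14.0% higher and 16.2% lower. The count was 8 without either library of day 0, of which 7 were lower and 1 was higher, and 1 without day 2 replicate 1.

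**Figure D4:**
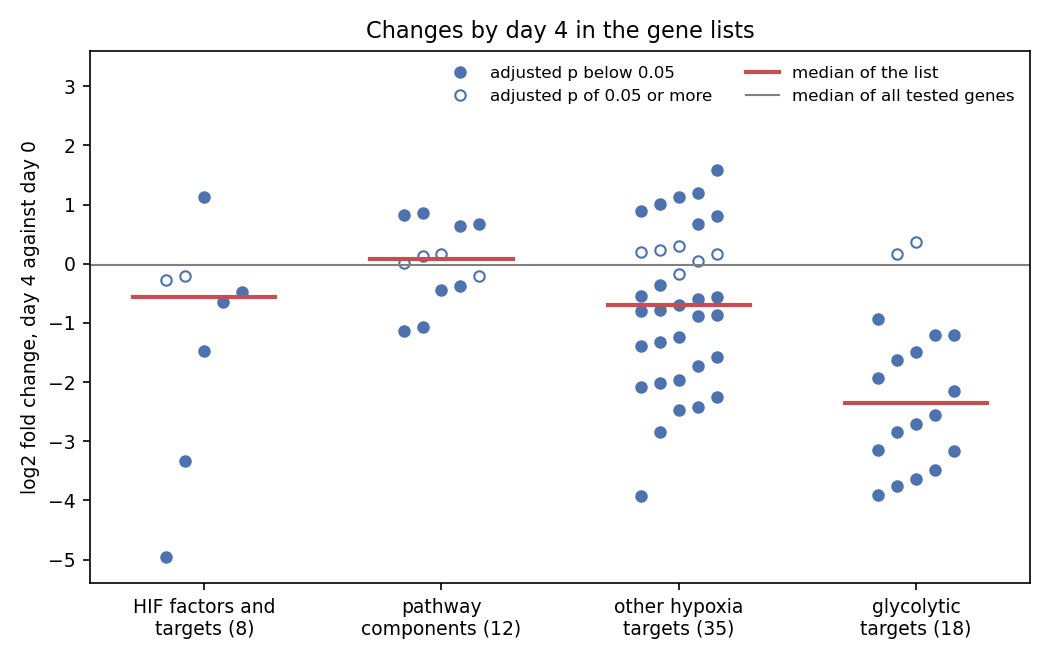
Points are log2 fold changes for day 4 against day 0 in the 8 tested genes, 12 pathway components, 35 other hypoxia targets and 18 glycolytic targets, filled where the edgeR adjusted p was below 0.05. Red lines mark the list medians of -0.57, 0.07, -0.70 and -2.35, and the grey line marks the median of all tested genes, -0.02.

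The genes whose pattern lay nearest to that of Hif1a were found by the Euclidean distance between log2 CPM values centred on each gene's mean, over the 6 libraries and among 8896 genes whose mean abundance reached 3 in log2 CPM. They were Il27ra, a cytokine receptor gene, at a distance of 0.11, 3110040N11Rik at 0.12 and Syf2, a splicing factor gene, at 0.13. Il27ra had means of 65.9, 47.6 and 52.0 CPM at days 0, 2 and 4, where Hif1a had 50.7, 38.9 and 42.0 CPM. For Ankrd37, the gene of the 8 with the widest range of day means (4.96 on the log2 scale), near genes were Id1, an inhibitor of helix-loop-helix factors, at 1.05 and Lgals1, a galectin gene, at 1.38. Id1 had means of 69.3, 4.47 and 3.42 CPM. These neighbours of Ankrd37 were thus farther from it than those of Hif1a were from Hif1a.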

How the data were processed

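The deposited values are raw read counts per RefSeq transcript in 6 libraries of MEL cells. The labels name a stranded mRNA library kit, cutadapt, TopHat, HTSeq and DESeq2 without versions, and mm10 as the build. The counting mode, its use of strand and the annotation release are not given in the sources used here. Reads assigned to no feature, 50.5% to 58.4% of each library's listed counts, were left out. Transcripts of the same gene can hold the same reads, as for Vegfa, so this is not a share of reads.

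Of 32654 transcripts, 32199 took a symbol from the RefSeq table (GRCm38.p6), 187 from GENCODE M21, and 268 had none. The counts were tested with edgeR 4.0.16 (R 4.3.3), with TMM factors of 0.921 to 1.07, filterByExpr by day and 1 quasi-likelihood fit over all libraries. P-values were adjusted over 18351 transcripts by the Benjamini-Hochberg method. Gene counts and medians use 1 transcript per gene, the one with the highest mean count. CPM use TMM-scaled library sizes, and likeness used a prior count of 2. The edgeR fit was tested on simulated data. Tables and plots used Python 3.11.15 with pandas 2.3.3, numpy 2.4.6 and matplotlib 3.10.9.

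The members and the lists were chosen with earlier results of these data known. Named genes are the 10 members, all pathway components, and, from the other target lists, the 4 largest rises and 4 largest falls by day 4 among called genes whose mean abundance reached 1 in log2 CPM, and the 3 genes most like Hif1a and like the member with the widest range. Not every gene that met these rules is named. The alternatives were DESeq2 1.42.0, relative log expression factors, total counts, no filter, the 2 days compared alone, a replicate block, a log2 fold change of at least 1, a gene's second transcript, and leaving out each library.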

Additional observations from a re-analysis of the deposited data

How the results depend on the processing

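For the log2 fold changes of the 8 tested genes, 304 values from the alternatives to 24 results could differ from the main value, and 274 of them kept both their direction and their side of the threshold, while 18 lost the call, 8 gained it and 4 turned direction. Those 4 all concerned Vegfa, which was called in none of the main comparisons. Without single libraries the Vegfa log2 fold change, day 2 against day 0, ranged from -0.45 to 0.0277. The Vegfa log2 fold change, day 4 against day 0, ranged from -0.44 to 0.0402. The Vegfa log2 fold change, day 4 against day 2, ranged from -0.10 to 0.14 and was -0.0673 with total counts. The causes were not tested beyond the scaling and the libraries named. For day 4 against day 2, leaving out single libraries gave 0 to 2 of the 8 genes, 0 to 5 components, 2 to 22 other targets and 1 to 8 glycolytic targets, and for day 2 against day 0 it gave 4 to 8 of the 8 genes and 5 to 9 components. Requiring a change of 1 or more in log2 size lowered the counts to 3, 0 and 4 of the 8 genes, 1, 0 and 2 components, 12, 3 and 17 other targets and 14, 0 and 15 glycolytic targets, for day 2 against day 0, day 4 against day 2 and day 4 against day 0. For day 4 against day 2, no filter and the 2 days alone both called 2 of the 8 genes, and total counts called 2 components.

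The replicate numbers were not shown to pair the libraries, since the replicate differences of 2 days correlated across the 18351 transcripts by 0.03, 0.05 and 0.08. With the replicate block, 6, 1 and 6 of the 8 genes were called in the 3 comparisons, as without it. The components called for day 4 against day 2 went from 4 to 2, as Elob and Cited2 lost their calls. The log2 fold change of Bnip3 by day 4 was then -3.15. Depth set a floor of 3 counts, or 0.0604 to 0.0831 CPM, which bore on Epas1 and Egln3, and the later libraries of Ankrd37 rested on 17 to 63 counts.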
